A study of Homo sapiens with 9 samples.

Results

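The receptor tyrosine kinase genes AXL, TYRO3, MET, FGFR1, FGFR2, FGFR3, FGFR4, DDR1, DDR2 and PDGFRB were followed across 3 breast cancer cell lines. All probe sets that carry one of these 10 symbols on the Affymetrix Human Genome U133 Plus 2.0 array were taken, which gave 38 named probe sets of 54675 on the array. The array annotation lists DDR1 together with the microRNA gene MIR4640, which lies inside DDR1. One of these probe sets, 207169_x_at, was named DDR1 by its accession, and 3 others are given as probe sets listing both genes. Only 19 of the 38 named probe sets, from 8 genes, reached a log2 value of 6 on at least 3 of the 9 arrays and were tested. None of the 4 DDR2 probe sets and not the PDGFRB probe set did so.

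Receptor tyrosine kinases are single-pass membrane proteins that dimerize on binding a ligand, phosphorylate each other and recruit adaptor proteins that feed the RAS-MAPK and PI3K pathways. AXL and TYRO3 bind GAS6, and TYRO3 also binds protein S. MET binds hepatocyte growth factor, the FGFRs bind fibroblast growth factors with heparan sulfate, the DDRs bind collagen, and PDGFRB binds platelet-derived growth factors. In breast cancer lines AXL and MET are known from basal-like and mesenchymal cells, and DDR1 and FGFR4 from epithelial cells. MDA-MB-231/GFP/Neo (MDA-MB-231 below) is a GFP-labeled, G418-resistant clone of an ER-negative line, and ZR-75-1/GFP/puro (ZR-75-1) is a GFP-labeled pool of puromycin-resistant cells of an ER-positive line. B6TC is a GFP-positive, estrogen-independent line. It came from a xenograft tumor, grown without estrogen, of bone marrow-derived B6 cells, and most of its cells resist both drugs. The labels call it a fusion of the 2 other lines. G418 was used to remove mouse cells. All 3 lines thus carry GFP, and each was hybridized to 3 arrays that the labels call technical replicates. The p-values given here cover the spread of such technical replicates and not that between cultures.

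The sequence just upstream of 4 receptor genes is shown because AXL and MET were high in one parental line and FGFR4 and DDR1 in the other. Each is the 250 bases before an annotated transcript start in RefSeq (GRCh38.p14). Capitals mark the E-box CACCTG on either strand, which is bound by ZEB and SNAI repressors of epithelial genes.
AXL, first of 2 windows, chr19:41218973-41219222, plus strand: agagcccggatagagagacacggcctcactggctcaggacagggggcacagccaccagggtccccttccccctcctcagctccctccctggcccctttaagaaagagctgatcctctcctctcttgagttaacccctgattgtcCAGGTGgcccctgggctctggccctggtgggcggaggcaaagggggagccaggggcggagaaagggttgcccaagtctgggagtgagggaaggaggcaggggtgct
MET, its only window, chr7:116671946-116672195, plus strand: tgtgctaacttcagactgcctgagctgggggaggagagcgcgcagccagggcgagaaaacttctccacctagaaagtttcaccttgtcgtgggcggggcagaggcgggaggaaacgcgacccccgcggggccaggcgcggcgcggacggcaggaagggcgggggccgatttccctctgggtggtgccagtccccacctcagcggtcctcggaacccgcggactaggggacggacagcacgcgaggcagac
FGFR4, first of 2 windows, chr5:177086665-177086914, plus strand: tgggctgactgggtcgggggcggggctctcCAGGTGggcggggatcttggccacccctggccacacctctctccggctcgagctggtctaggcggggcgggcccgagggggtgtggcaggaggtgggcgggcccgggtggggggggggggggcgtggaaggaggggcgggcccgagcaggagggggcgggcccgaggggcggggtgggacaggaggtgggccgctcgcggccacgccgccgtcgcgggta
DDR1, second of 8 windows, chr6:30882684-30882933, plus strand: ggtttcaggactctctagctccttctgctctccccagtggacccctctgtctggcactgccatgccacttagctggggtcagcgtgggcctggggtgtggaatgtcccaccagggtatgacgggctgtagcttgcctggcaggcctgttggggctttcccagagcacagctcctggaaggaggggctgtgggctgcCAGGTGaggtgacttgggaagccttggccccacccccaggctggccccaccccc

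The search covered windows of 300 bases, from 250 before to 50 after each start, for CACCTG and for the AP-1 motif TGANTCA on both strands. Neither motif can lie inside the other. Over all 35116 windows of the table, 20.6% held CACCTG and 7.71% held TGANTCA. Of 25 windows from 9 of the receptor genes, 7 held CACCTG and 3 held TGANTCA. The E-box stood at position -106 from the start in AXL, -220 in FGFR4 and -54 in DDR1, and FGFR2 had one at -160. Of the 8 DDR1 windows 4 held one, and the second, shown above, is the first of these. Since overlapping DDR1 windows share a site, the 4 hold 3 distinct sites, and the 7 windows of all receptor genes 6. The MET window held neither motif. The E-box was thus found near starts of genes of both expression patterns. Of the factors that bind it, ZEB1 had mean log2 levels of 9.49, 9.18 and 2.65 in the order B6TC, MDA-MB-231, ZR-75-1, and SNAI2 of 9.62, 8.96 and 3.36. No promoter of FGFR1 was read.

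The third B6TC array stood apart from the other B6TC arrays. At 226 probe sets high in ZR-75-1 alone, its median excess over the MDA-MB-231 mean was 0.49 log2 units, against 0.07 and 0.03 on the first and second array. The mean of 8 luminal epithelial markers was 7.41, 7.36 and 8.29 on the B6TC arrays, 7.37 to 7.46 on the MDA-MB-231 arrays and 11.68 to 11.74 on the ZR-75-1 arrays, and 6 mesenchymal markers were at 9.60 to 9.61, 9.56 to 9.60 and 5.24 to 5.35. Of 4 measured hematopoietic and 4 endothelial markers only CD79A and PECAM1 reached a mean of 6 in any line, and the defining markers PTPRC and CDH5 lay below 4 in every line. The 3′ probe set of the control gene ACTB lay above its 5′ counterpart by 0.67, 0.32 and 0.73 in the same order of lines, and that of GAPDH by 0.29, 0.07 and 0.21. The part of these differences in the results was not tested. Array medians were 4.89 to 4.96, and no detection calls were used, so a mean below the filter level of 6 is not told apart from background here. A difference from such a mean is a fitted value, and its fold is given only as a limit, with the dim arrays set to 6. In bulk RNA, fewer cells with a transcript and less of it per cell cannot be told apart.

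**Figure D1:**
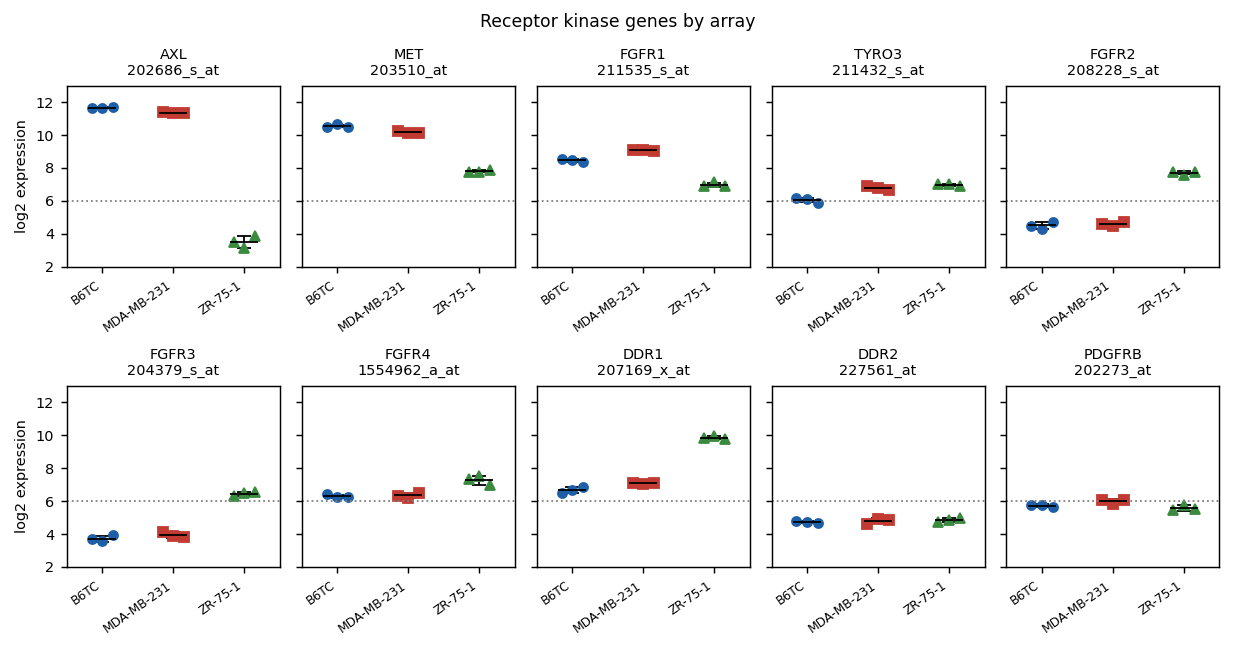
Log2 expression (y axis) of 1 probe set for each of the 10 receptor genes on the 9 arrays, by cell line (x axis). For each gene the tested probe set with the highest mean is drawn, or the highest of all for the untested DDR2 and PDGFRB. Points are arrays, black bars are the mean and SD of 3 arrays, and the dotted line is the log2 level of 6 used as filter. AXL, MET and FGFR1 sit high in B6TC and MDA-MB-231, whereas FGFR2, FGFR3, FGFR4 and DDR1 sit high in ZR-75-1.

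AXL, the receptor of GAS6 and the namesake of the TAM family, was high in MDA-MB-231 and B6TC but low in ZR-75-1. Its probe set 202686_s_at read 11.67, 11.64 and 11.68 on the 3 B6TC arrays, 11.41, 11.32 and 11.36 in MDA-MB-231, and 3.51, 3.13 and 3.85 in ZR-75-1. No array of one line overlapped another line. The fitted difference of B6TC from ZR-75-1 was 8.17 log2 units (limma adjusted p = 7.5e-12, standard error 0.14), and that of MDA-MB-231 was 7.87. Since the ZR-75-1 arrays lay below the filter level, the differences are at least 50.8-fold and at least 41.2-fold. Over MDA-MB-231, B6TC was 0.30 higher (standard error 0.14, 95% interval -0.01 to 0.61), which was not called (limma adjusted p = 0.083). That outcome changed with the ZR-75-1 arrays, whose SD of 0.36 enters the shared variance. The limma adjusted p became 0.0086 without the second ZR-75-1 array, 0.014 without the third, and 5.6e-04 in a fit to B6TC and MDA-MB-231 only. The other AXL probe set, 202685_s_at, read 8.05, 8.05 and 8.08 in B6TC, 8.33, 8.21 and 8.33 in MDA-MB-231 and 6.01, 5.75 and 5.62 in ZR-75-1. It put B6TC above ZR-75-1 by 2.27 but below MDA-MB-231 by 0.23 (difference -0.23, standard error 0.087, limma adjusted p = 0.038). This call was lost when any B6TC array, or MDA-MB-231 array 1 or 3, was left out, with limma adjusted p from 0.067 to 0.103, and with arrays centered on their medians (limma adjusted p = 0.080). The direction between B6TC and MDA-MB-231 therefore differed between the AXL probe sets.

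TYRO3, the second TAM receptor measured here, stood lowest in B6TC with its probe set of higher mean. Probe set 211432_s_at read 6.17, 6.09 and 5.89 in B6TC, 6.90, 6.79 and 6.67 in MDA-MB-231 and 7.00, 7.03 and 6.92 in ZR-75-1. The B6TC arrays lay below all others, by 0.74 against MDA-MB-231 (difference -0.74, standard error 0.082, limma adjusted p = 2.7e-05) and 0.93 against ZR-75-1 (difference -0.93, limma adjusted p = 1.5e-06). Probe set 211431_s_at read 5.07, 5.41 and 5.47 in B6TC, 6.13, 6.18 and 6.21 in MDA-MB-231, and 5.73 on each ZR-75-1 array. The fitted differences of B6TC from MDA-MB-231 and ZR-75-1 were -0.86 and -0.41 (limma adjusted p = 1.8e-05 and 0.0014). MDA-MB-231 was at least 1.13-fold above B6TC. B6TC and ZR-75-1 both lay below the filter level with this probe set, where their order is not measured. The probe sets gave opposite orders of the parental lines. With 211431_s_at MDA-MB-231 was a fitted 0.45 above ZR-75-1, at least 1.13-fold. With 211432_s_at the difference was -0.19 (limma adjusted p = 0.0487). This call was lost without the second B6TC array, MDA-MB-231 array 2 or 3, or ZR-75-1 array 1 or 2 (limma adjusted p from 0.061 to 0.174).

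MET, the receptor of hepatocyte growth factor, was lowest in ZR-75-1 with each of its 4 probe sets. With 203510_at the B6TC arrays read 10.52, 10.65 and 10.49, the MDA-MB-231 arrays 10.23, 10.15 and 10.15 and the ZR-75-1 arrays 7.78, 7.77 and 7.88, and no lines overlapped. B6TC was above ZR-75-1 by 2.75 (limma adjusted p = 2.5e-11, standard error 0.056), a 6.71-fold difference. The other MET probe sets gave 1.99, 1.39 and 3.40. The last of these, 213816_s_at, read 6.91, 7.01 and 7.01 in B6TC and 3.53, 3.69 and 3.51 in ZR-75-1.
Between B6TC and MDA-MB-231 the MET probe sets were called in opposite directions. Probe set 203510_at was 0.37 higher in B6TC (limma adjusted p = 2.2e-04), whereas 211599_x_at, 213807_x_at and 213816_s_at had differences of -0.33, -0.33 and -0.36 (limma adjusted p = 0.0051, 7.8e-04 and 8.0e-04). With the 4 averaged, the difference was -0.16 (limma adjusted p = 0.011), so the direction depends on how the gene is represented. The 3′ to 5′ differences of ACTB and GAPDH also differed between these lines, and whether they bear on the MET probe sets was not tested.

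FGFR1, a receptor for many fibroblast growth factors, held the tested receptor probe set with the largest difference between B6TC and MDA-MB-231. With the probe set of highest mean per gene, however, FGFR1 differed by -0.61 and TYRO3 by -0.74. Probe set 210973_s_at read 7.73, 7.78 and 7.75 in B6TC, 9.60, 9.47 and 9.47 in MDA-MB-231 and 6.87, 6.83 and 7.00 in ZR-75-1. B6TC lay between its parental lines, with no overlap. It was 3.38-fold below MDA-MB-231 (difference -1.76, standard error 0.056, limma adjusted p = 1.7e-08) and 0.85 above ZR-75-1 (limma adjusted p = 1.5e-07). Probe set 226705_at read 7.96, 7.88 and 7.96 in B6TC, 9.12, 9.09 and 9.02 in MDA-MB-231 and 6.49, 6.65 and 6.49 in ZR-75-1, which gave -1.15 and 1.38. Probe set 211535_s_at had means of 8.46 ± 0.091 (SD, n = 3), 9.07 ± 0.052 and 6.99 ± 0.12, with differences of -0.61 and 1.47. These 3 probe sets thus shared the order MDA-MB-231, B6TC, ZR-75-1. Probe set 207937_x_at had means of 6.63 ± 0.10, 7.58 ± 0.037 and 6.63 ± 0.061. It also put B6TC below MDA-MB-231 (difference -0.95), but its B6TC and ZR-75-1 arrays overlapped (difference 0.005, 95% interval -0.13 to 0.14, limma adjusted p = 0.94). The remaining 3 FGFR1 probe sets stayed below the filter, with means from 3.21 to 5.62.

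FGFR2 and FGFR3, whose splice forms mark epithelial cells, reached the filter level only in ZR-75-1 with their tested probe sets. These probe sets thus passed the filter through that line alone. Their calls against ZR-75-1 are therefore not independent of the filter. FGFR2 208228_s_at read 4.48, 4.32 and 4.74 in B6TC, 4.59, 4.49 and 4.71 in MDA-MB-231 and 7.76, 7.60 and 7.76 in ZR-75-1. ZR-75-1 was at least 3.26-fold above B6TC (fitted difference of B6TC -3.19, standard error 0.10, limma adjusted p = 5.5e-10). The B6TC and MDA-MB-231 arrays overlapped (difference -0.08, 95% interval -0.31 to 0.15, limma adjusted p = 0.49), but both lines lay below the filter level, where their order is not measured. FGFR2 203638_s_at gave -2.69 against ZR-75-1 and -0.13 (95% interval -0.47 to 0.21) against MDA-MB-231. The other 9 FGFR2 probe sets, among them 208234_x_at with the highest mean of the gene, did not pass the filter and had means of 3.06 to 5.94.
FGFR3 204379_s_at read 3.68, 3.55 and 3.92 in B6TC, 4.12, 3.87 and 3.80 in MDA-MB-231 and 6.30, 6.47 and 6.56 in ZR-75-1. B6TC was below ZR-75-1 (difference -2.73, standard error 0.11, limma adjusted p = 3.3e-09) at least 1.36-fold. Its arrays overlapped those of MDA-MB-231 (difference -0.22, 95% interval -0.46 to 0.03, limma adjusted p = 0.11), again with both below the filter level. Without the third B6TC array this fitted difference was -0.32 (limma adjusted p = 0.028). The other FGFR3 probe set was between 2.94 and 3.65 on every array.

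FGFR4, the receptor of the endocrine factor FGF19, exceeded its B6TC level in ZR-75-1 with all 3 tested probe sets. Probe set 204579_at read 5.97, 6.03 and 5.99 in B6TC, 5.48, 5.57 and 5.28 in MDA-MB-231 and 7.73, 7.95 and 7.90 in ZR-75-1. ZR-75-1 was at least 3.60-fold above B6TC (fitted difference of B6TC -1.86, limma adjusted p = 4.8e-09). B6TC was a fitted 0.55 above MDA-MB-231 (limma adjusted p = 1.7e-04), with no overlap. Both of these means lay below the filter level, however, where their order is not measured. Probe sets 1554962_a_at and 211237_s_at gave -0.96 and -1.37 against ZR-75-1. Against MDA-MB-231 their arrays overlapped, with differences of -0.04 (95% interval -0.33 to 0.25) and 0.09 (95% interval -0.10 to 0.28). The excess of FGFR4 over MDA-MB-231 thus rested on 1 of 3 probe sets, with both means below the filter level. With the 3 averaged, the difference was 0.20 and was called (limma adjusted p = 0.014).

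DDR1, a collagen receptor of epithelial cells, was high in ZR-75-1 and lowest in B6TC. Probe set 207169_x_at read 6.47, 6.67 and 6.88 in B6TC, 7.09, 7.07 and 7.08 in MDA-MB-231 and 9.86, 9.94 and 9.80 in ZR-75-1. B6TC was 9.16-fold below ZR-75-1 (difference -3.20, standard error 0.089, limma adjusted p = 2.0e-10), and below MDA-MB-231 by 0.41 (difference -0.41, limma adjusted p = 0.0024), with no overlap. The third B6TC array was the highest of its line, and without it the difference from MDA-MB-231 was -0.51. The 3 probe sets that list both DDR1 and MIR4640 gave -2.62, -3.16 and -3.20 against ZR-75-1. Against MDA-MB-231, 210749_x_at and 208779_x_at gave -0.41 and -0.39 and were called. The third, 1007_s_at, gave -0.16 and was not called (limma adjusted p = 0.091), but gave -0.24 and was called without the third B6TC array (limma adjusted p = 0.019).
DDR2, the collagen receptor known from mesenchymal cells, stayed below the filter in all lines. Its highest probe set, 227561_at, read 4.79, 4.71 and 4.67 in B6TC, 4.64, 4.91 and 4.88 in MDA-MB-231 and 4.71, 4.83 and 4.95 in ZR-75-1, and the lines overlapped. PDGFRB, a receptor of platelet-derived growth factors, read 5.75, 5.79 and 5.63 in B6TC, 6.07, 5.86 and 6.10 in MDA-MB-231 and 5.44, 5.79 and 5.50 in ZR-75-1. Its B6TC arrays lay below those of MDA-MB-231 and overlapped those of ZR-75-1, but with only 2 arrays above 6 it was not tested.

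Counted over the 19 tested probe sets, 13 were called between B6TC and MDA-MB-231 (2 with B6TC above and 11 with B6TC below), where 65.1% of all 21095 tested probe sets were called (33.9% higher and 31.3% lower). The median difference was -0.33, against 0.009 over all tested probe sets. Several of the 19 belong to the same gene. With 1 probe set per gene, 4 of 8 genes were called, 1 higher and 3 lower, at a median difference of -0.15. Over all tested genes 65.0% were called (36.5% higher and 28.5% lower), at a median of 0.036. At least 2-fold differences were seen in 2 of the 19, both of FGFR1, against 3.85% of all. The 2 higher calls were MET 203510_at and FGFR4 204579_at, the latter with both means below the filter level. Between B6TC and ZR-75-1, 18 were called, 9 in each direction, against 83.7% of all (43.0% higher and 40.6% lower), and 14 differed at least 2-fold, against 30.7%. Between MDA-MB-231 and ZR-75-1 all 19 were called, 11 higher and 8 lower in MDA-MB-231, against 83.7% (43.8% higher and 39.9% lower), and 15 differed at least 2-fold, against 31.5%. Since a probe set could pass the filter through the line where it is high, these counts describe the tested probe sets and not all 38. The count between B6TC and MDA-MB-231 was 13 also without the third B6TC array. With the 3 probe sets listing DDR1 and MIR4640 added, the counts were 15, 21 and 22 of 22.

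**Figure D2:**
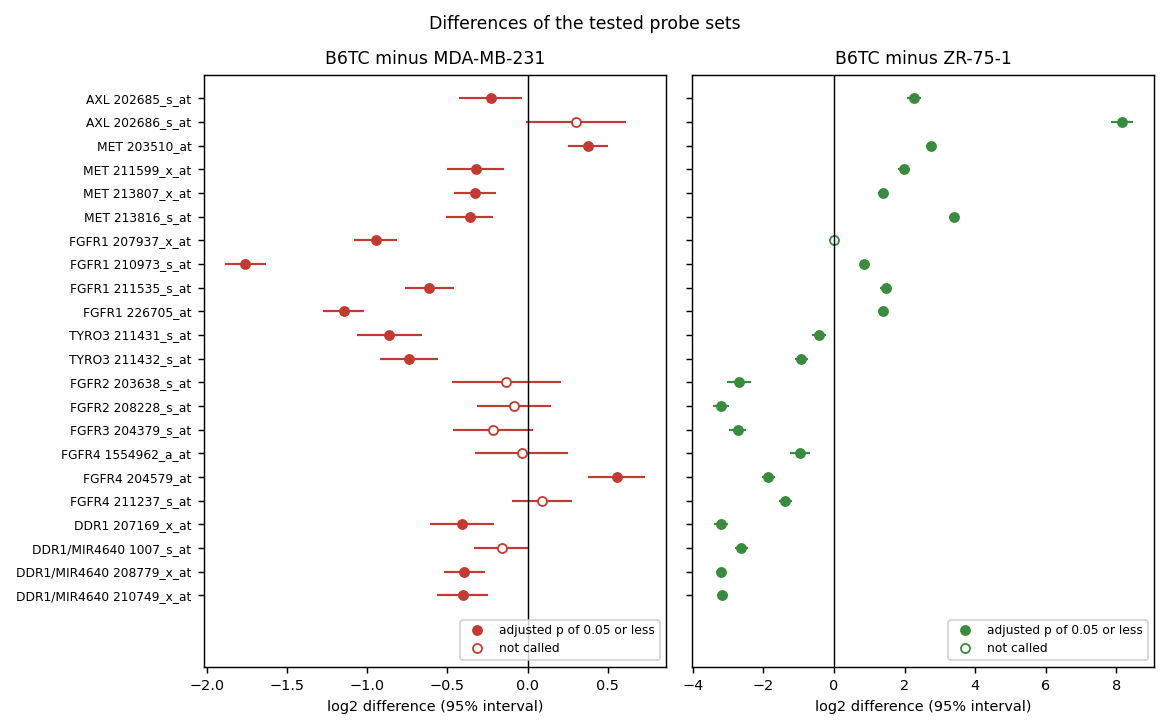
Log2 difference (x axis) of B6TC from MDA-MB-231 (left) and from ZR-75-1 (right) for the 19 tested probe sets and the 3 that list DDR1 and MIR4640 (y axis, by gene). Points are differences of means over 3 arrays, lines are 95% intervals from limma and filled points passed an adjusted p of 0.05. All 4 FGFR1 probe sets lie left of 0 in the left panel, and AXL 202686_s_at lies farthest to the right, at 8.17, in the right panel, a fitted difference from ZR-75-1 arrays below the filter level of 6.

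Where B6TC stood between its parental lines was expressed as a position, 0 at the MDA-MB-231 mean and 1 at the ZR-75-1 mean, for the 15 tested probe sets whose parental means differed by at least 1 log2 unit. The median position was 0.092, against 0.051 for the 6635 tested probe sets of that kind, and 0.096 without the third B6TC array. Among the 15, FGFR1 stood farthest from MDA-MB-231, at 0.67, 0.45 and 0.29 with its 3 probe sets of that kind. The remaining tested one, 207937_x_at, had a parental difference of 0.95, just short of 1, and a position of 0.99. Also short of 1 were FGFR4 1554962_a_at, at a position of -0.04, and TYRO3 211432_s_at and 211431_s_at, at -3.82 and 1.92. For TYRO3 the parental differences were only -0.19 and 0.45. FGFR4 204579_at was at 0.23, from B6TC and MDA-MB-231 means below the filter level, and 3 MET probe sets were at 0.10 to 0.19. AXL was at -0.04 and 0.09. Within the 15, positions below 0 were found for 6 probe sets. Of these only MET 203510_at, at -0.16, and DDR1 207169_x_at, at -0.15, were called different from MDA-MB-231, and the other 4 were not. Of the 15, only FGFR1 210973_s_at was above 0.5. The 3 B6TC arrays gave 0.66 to 0.68 for it, a narrow range, whereas DDR1 ran from -0.22 to -0.07.

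**Figure D3:**
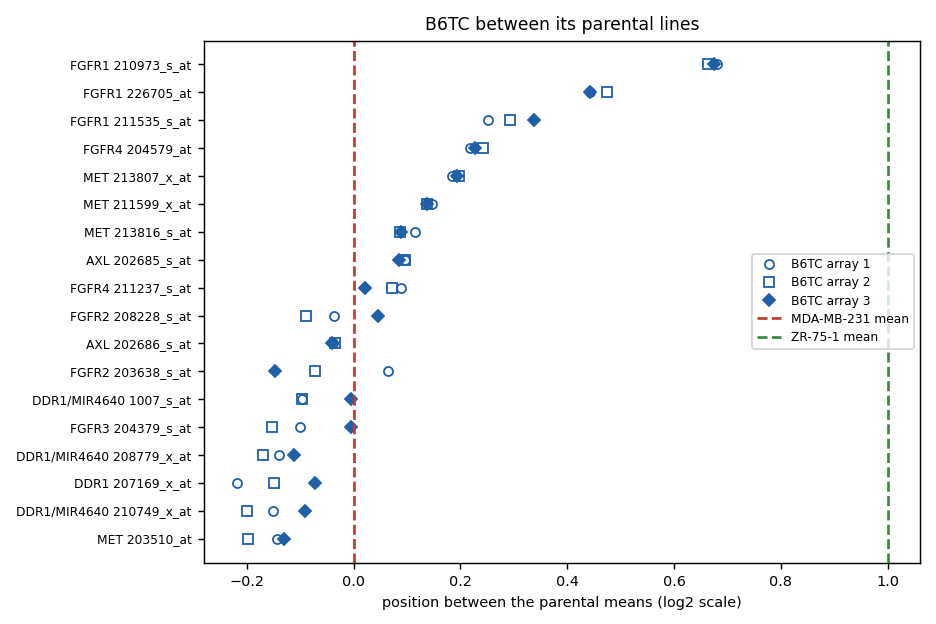
Position of each B6TC array (x axis, on the log2 scale, with 0 at the MDA-MB-231 mean and 1 at the ZR-75-1 mean) for the 15 receptor probe sets whose parental lines differ by at least 1 log2 unit and the 3 that list DDR1 and MIR4640 (y axis). The third array has filled symbols. The FGFR1 probe sets stand farthest to the right, at means of 0.29 to 0.67, and most others lie near 0.

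The rest of the signaling pathways was read from 95 other genes, with 1 probe set per gene, of which 59 were tested. Between B6TC and MDA-MB-231, 42 were called, with B6TC above in 27 and below in 15, against 65.0% of all 10752 tested genes (36.5% higher and 28.5% lower). With the tested probe sets of each gene averaged, 43 were called, 22 higher and 21 lower, so the split depends on the choice of probe set. Of the 27 higher genes 9 had another tested probe set called lower, and of the 15 lower genes 0 had one called higher. Between B6TC and ZR-75-1, 57 were called, 34 higher and 23 lower, against 84.4% (42.8% and 41.6%). Between the parental lines 57 were called, 37 higher and 20 lower in MDA-MB-231, against 84.4% (42.5% and 41.9%). Only 3 genes differed at least 2-fold between B6TC and MDA-MB-231. These were the ligand FGF1, the adaptor NCK2 and the feedback inhibitor SPRY4, the last named after its values were seen.

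Of 34 ligand genes 12 were tested. Called above ZR-75-1 in B6TC were 8 and below it 3, beside 42.8% and 41.6% of all tested genes. Against MDA-MB-231, 3 were called higher and 5 lower, beside 36.5% and 28.5%. FGF1 (205117_at), which binds all FGFRs, was at 7.32 ± 0.010 (SD, n = 3), 6.17 ± 0.0013 and 5.02 ± 0.093 in the order B6TC, MDA-MB-231, ZR-75-1, which also holds for the means that follow. B6TC exceeded MDA-MB-231 by 1.15 (limma adjusted p = 1.1e-07), and by 2.29 with the other tested probe set of FGF1. FGF5, at 7.89, 7.08 and 4.86, was 0.81 higher (limma adjusted p = 1.2e-04), and its other probe sets gave 0.58 and 1.02. Both FGF ligands were thus above MDA-MB-231 in the line where FGFR1 was below it. GAS6, the ligand of AXL and TYRO3, was at 9.46, 9.94 and 7.47, and B6TC lay below MDA-MB-231 (difference -0.49, limma adjusted p = 1.0e-05). PROS1, which encodes protein S, was at 7.87, 7.57 and 5.75 and 0.30 higher (limma adjusted p = 0.0026). HGF, the MET ligand, stayed below the filter at 5.45, 5.22 and 5.32.
The collagen IV genes, whose products bind DDRs, were high in both lines other than ZR-75-1. COL4A1 was at 7.50, 7.66 and 4.06 and COL4A2 at 8.20, 8.72 and 4.04. For COL4A2, B6TC lay below MDA-MB-231 (difference -0.52, limma adjusted p = 0.037), a call lost when any array of these lines was left out (limma adjusted p from 0.062 to 0.094). COL4A1 gave -0.16 and was not called. The other tested probe sets of COL4A2 and COL4A1 gave -0.96 and -0.77, and each was called lower. COL3A1 and COL5A2 did not pass the filter with means of 5.89, 4.49 and 4.31 for the one and 5.80, 4.73 and 4.46 for the other. PDGFC, at 11.35, 11.39 and 8.22, and PDGFD, at 7.02, 7.71 and 3.17, exceeded ZR-75-1 in B6TC by 3.12 and 3.85. The 3 ligands below ZR-75-1 were COL5A1, PDGFA and PDGFB. COL5A1 was at 6.15, 6.94 and 6.39, with differences of -0.79 and -0.24 from the parental lines in that order (limma adjusted p = 2.2e-05 and 0.023). PDGFA was at 6.20, 6.52 and 6.41, with differences of -0.32 and -0.21 (limma adjusted p = 0.0010 and 0.0087). PDGFB was at 3.89, 3.95 and 6.34, so that ZR-75-1 alone stood above the filter level. COL1A1, at 7.15, 7.27 and 7.09, was called in neither comparison of B6TC with this probe set (differences -0.12 and 0.05). Its other tested probe sets gave -2.45 and -2.35 against ZR-75-1. Against MDA-MB-231 they gave -0.09 and 1.18, and 1 was called higher.

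Of 17 related receptors and co-receptors 9 were tested. Called above ZR-75-1 in B6TC were 4 and below it 5, beside 42.8% and 41.6% of all tested genes. Against MDA-MB-231, 3 were called higher and 3 lower, beside 36.5% and 28.5%. MERTK, the remaining TAM receptor, was at 8.21, 7.81 and 4.35 with 206028_s_at. It exceeded ZR-75-1 by 3.86 (limma adjusted p = 1.6e-09). Its excess of 0.40 over MDA-MB-231 (limma adjusted p = 0.031) was lost when any array of B6TC or MDA-MB-231 was left out (limma adjusted p from 0.058 to 0.080), and its other tested probe set gave -0.45. SDC2, a heparan sulfate co-receptor of FGFs, was at 8.56, 7.84 and 5.57. It was 0.72 above MDA-MB-231, but 0.006 to 0.067 with its other probe sets. GPC4, at 4.56, 4.57 and 8.06, and FLT3, at 4.18, 4.29 and 6.69, lay below ZR-75-1 in B6TC (differences -3.50 and -2.51), and their differences from MDA-MB-231 of -0.01 and -0.11 were not called.

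Of 8 genes that activate or shed ligands and receptors 6 were tested. Called above ZR-75-1 in B6TC were 3 and below it 3, beside 42.8% and 41.6% of all tested genes. PLAU, a protease that can activate HGF, was at 9.85, 9.29 and 4.24, and exceeded ZR-75-1 by 5.61 (limma adjusted p = 7.3e-13). Its excess over MDA-MB-231 was 0.56, whereas its other tested probe set gave -0.23. ST14, another HGF activator, was at 5.95, 6.06 and 8.99, and SPINT1, an inhibitor of such activators, at 4.98, 5.18 and 9.90. Both were higher in ZR-75-1. The SPINT1 difference between B6TC and MDA-MB-231 of -0.21 was not called. Without the third B6TC array the fitted difference was -0.33 (limma adjusted p = 0.014). Both SPINT1 means lay below the filter level, however, where their order is not measured. ADAM10, a sheddase, was at 9.26, 9.65 and 8.41 and B6TC lay below MDA-MB-231 (difference -0.40, limma adjusted p = 6.7e-05).

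Of 23 adaptors and effectors 20 were tested. Against MDA-MB-231, 11 were called higher and 3 lower in B6TC, beside 36.5% and 28.5% of all tested genes. The median difference of the 20 was 0.27, beside 0.036 over all tested genes. For 6 of the 11 (SHC1, SOS2, PTPN11, CBL, NCK1 and STAT3) another tested probe set was called lower, so their direction is uncertain. SHC1 gave 0.51 with one probe set and -0.82 with the other, and NCK1 0.30 and -0.28. NCK2, which links receptors to the actin cytoskeleton, was at 8.60 ± 0.0020 (SD, n = 3), 7.41 ± 0.10 and 9.08 ± 0.058, and B6TC was 1.19 above MDA-MB-231 (limma adjusted p = 1.7e-07). PIK3R1, the regulatory subunit of PI3K, was at 7.36, 7.08 and 8.64 and 0.27 above MDA-MB-231, and its other probe sets gave 0.78 and 0.82. STAT3 was at 9.90, 9.57 and 8.21. VAV3 was at 3.93, 3.89 and 8.41, and B6TC lay far below ZR-75-1 (difference -4.48).

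Of 13 feedback inhibitors 12 were tested. Called above ZR-75-1 in B6TC were 10 and below it 2, beside 42.8% and 41.6% of all tested genes. The median difference was 3.69, beside -0.005 over all tested genes. Against MDA-MB-231, 8 were called higher and 2 lower, beside 36.5% and 28.5%. DUSP6, a phosphatase of ERK, read 11.12, 10.60 and 3.54 on average in the same order, and B6TC was at least 34.7-fold above ZR-75-1 (fitted difference 7.57, limma adjusted p = 4.1e-13). It exceeded MDA-MB-231 by 0.52 (limma adjusted p = 2.5e-04), where its other probe sets gave -0.03 to 0.51. DUSP4, a related phosphatase, was at 11.08, 10.57 and 5.54. SPRY2, an inhibitor of RAS activation, was at 10.22, 9.44 and 4.83, and B6TC exceeded MDA-MB-231 by 0.79 (limma adjusted p = 0.0019). SPRY4, of the same family, went the other way between these lines, at 7.77, 8.86 and 4.94 (difference -1.10, limma adjusted p = 1.4e-05). SPRED1 was at 8.31, 7.97 and 4.23, and its call of 0.34 above MDA-MB-231 (limma adjusted p = 0.015) was lost without the third MDA-MB-231 array (limma adjusted p = 0.060), while its other probe sets gave -0.97 and 0.05.

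**Figure D4:**
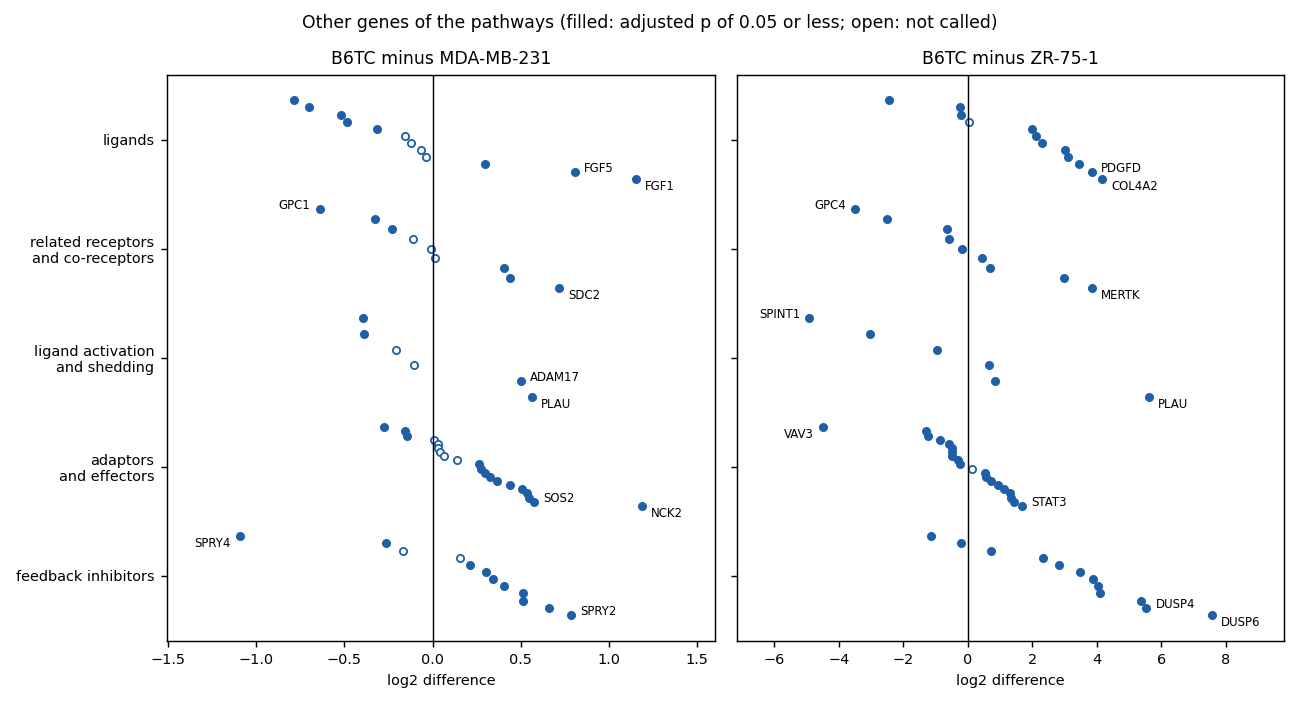
Log2 difference (x axis) of B6TC from MDA-MB-231 (left) and from ZR-75-1 (right) for the 59 tested genes of 5 pathway lists (y axis). Each point is 1 gene with 1 probe set, filled where the limma adjusted p was 0.05 or less, and the 2 largest absolute differences of a list are named. In the right panel most feedback inhibitors lie to the right of 0, up to DUSP6 at 7.57, a fitted difference from ZR-75-1 arrays below the filter level of 6.

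For each tested receptor the genes with the most similar profile were found by the root mean square difference of centered log2 values over the 9 arrays, among 10751 genes, as a description with no test. Nearest to AXL were EMP1 and NT5E, at 0.16 and 0.19 log2 units. EMP1 had means of 10.97, 10.64 and 2.98. Nearest to MET were BCAR3 and DOCK9, at 0.052 and 0.060, and nearest to FGFR1 were FOSL2 and FAM118B, at 0.070 and 0.072. TYRO3 was most like PAXX and ADRM1, at 0.076 and 0.079. FGFR2 was most like TMOD2 and ERVMER34-1, FGFR3 most like KIAA0040 and ZNF217, and FGFR4 most like C21orf58 and GFER, at 0.094 to 0.11. DDR1 was nearest to SPDEF, an epithelial transcription factor, at 0.069, with means of 7.13, 7.53 and 10.38, and to EFEMP1 at 0.10.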

How the data were processed

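RNA from the 3 lines, with 3 technical replicates each, was hybridized to HG-U133 Plus 2.0 arrays. The deposited values are log2 expression, made by the authors with Affymetrix Expression Console and RMA per the labels, versions not given, whereas the methods name GC-RMA. Neither was repeated here. Medians of the arrays were 4.89 to 4.96, and the number of arrays limits the precision. Symbols were taken from the platform annotation and updated by gene identifier. Probe sets that reached a log2 value of 6 on 3 or more arrays entered the test (21095, leaving out 62 controls). The linear model of limma (version 3.58.1, R 4.3.3) fitted a mean to each line, and a call required 0.05 or less after Benjamini-Hochberg adjustment over all tested probe sets. The procedure was tested on simulated data. A pathway gene was read by its tested probe set with the highest mean. Named were all receptor probe sets, their ligands and the 4 genes of each list with the largest differences. The members and lists were chosen with earlier results of these data known. Alternatives covered filter, normalization, regression, variances, samples in the fit, probe set choice, a fold minimum, a replicate block and each array left out.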

Additional observations from a re-analysis of the deposited data

How the results depend on the processing

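Over the alternatives run, 1130 values of receptor differences and 1094 of pathway genes kept their direction and their side of the threshold. In the same order, 13 and 17 lost a call and 7 and 5 gained one. These pathway values cover only the genes of each list with the largest differences. Since these genes were picked by size, the values do not describe the other tested pathway genes. Calls, in the order B6TC against MDA-MB-231, B6TC against ZR-75-1 and MDA-MB-231 against ZR-75-1, numbered 13, 18 and 19 of 19 receptor probe sets. With the probe sets of each gene averaged they were 5, 8 and 8 of 8 genes, and without probe sets that may bind several transcripts 3 of 3 each, since fewer features entered. A 2-fold minimum left 2, 14 and 15 receptor probe sets and 3, 34 and 33 pathway genes, in the same order of comparisons. The calls it removed are not among the lost calls counted above. Leaving out 1 array at a time gave 12 to 14, 18 to 18 and 18 to 19 receptor probe sets, 37 to 43, 55 to 58 and 54 to 57 pathway genes, and a median position of 0.087 to 0.096. A replicate block gave 13, 18 and 19 receptor probe sets and 42, 57 and 56 pathway genes. Deviations from the line means correlated at -0.10 to 0.18 between arrays of the same number and at -0.21 to 0.23 between others. With 3 arrays per line these values cannot decide whether the numbers pair the arrays.

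Reversals were followed only for the receptors and the pathway genes of each list with the largest differences. Reversed differences of B6TC from MDA-MB-231 were, with probe sets averaged, MET -0.161, MERTK -0.024, SPRED1 -0.193 and FGFR4 0.202. FGFR4 1554962_a_at gave 0.003 with arrays centered on their medians. Leaving out single arrays moved it between -0.108 and 0.048, FGFR4 211237_s_at between -0.022 and 0.160, FGFR2 208228_s_at between -0.198 and 0.014, GPC4 between -0.135 and 0.105 and VAV3 between -0.083 and 0.127. GPC4 gave 0.028 with centering and 0.028 with quantile normalization. FGFR1 207937_x_at against ZR-75-1 gave -0.092 with quantile normalization, -0.010 with robust regression and -0.052 to 0.045 with single arrays left out. TYRO3 between the parental lines gave 0.127 with probe sets averaged. Apart from averaging, these settings reversed only differences that were not called. The cause was not tested.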
